A study of Mus musculus with 21 samples.

Results

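Open chromatin was compared between endothelial cells (EC) isolated with 2 different genetic drivers, taking 5 of the 21 samples of the series: 2 ATAC libraries of Tie2-Cre EC and 3 ATAC libraries of Gata4 het EC. The libraries were taken by a rule on their labels, and the peaks of the 5 libraries merged into 155283 regions wherever they shared at least 1 bp. All samples came from mouse heart ventricles at E12.5, counted in days of embryonic development. Tie2-Cre EC came from embryos with the Rosa26fsTrap reporter and Tie2Cre, without tamoxifen, and 40000 GFP-positive cells were sorted per library (replicates 2 and 3). Gata4 het EC came from embryos with the Cdh5(Pac)-CreERT2 driver and the Rosa26mTmG reporter. Their mothers received 1 mg of tamoxifen by gavage at embryonic day 9.5, and 20000 GFP-positive cells were sorted per library (replicates 2, 3 and 4). A neonatal cardiomyocyte isolation kit dissociated the hearts in both, from Cellutron in the first group and from Miltenyi in the second. Driver, reporter, Gata4 genotype, tamoxifen, cell number and kit therefore differed together, and their shares in any difference cannot be told apart. A further 3 libraries, Gata4 ko EC, were made like the het libraries and differ from them in Gata4 alone per the labels. They took no part in the region classes, and were pooled with the het libraries only where stated. The labels do not say whether replicates came from separate litters, so every p-value measures the spread between these libraries.

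ATAC uses a transposase that inserts sequencing adapters where DNA is not wrapped in nucleosomes, so a peak marks accessible chromatin such as an active promoter or enhancer. Tie2 is the receptor encoded by Tek. Tie2-Cre acts early, in the endocardium and vessels and also in blood cells, and its mark is inherited by the cushion mesenchyme that arises from endocardium. Cdh5 encodes VE-cadherin, a junction protein of endothelium, and a Cdh5-driven CreERT2 recombines only in cells that express it while tamoxifen is present. The endocardium is the endothelium that lines the heart chambers, and NFATC1, GATA4 and Notch signals are among its known regulators.

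The promoters shown were picked, after values had been seen, from listed genes with a gap between the groups. They are Tek, the gene that names the first driver, the immediate early genes Jun, Fosb and Btg2, the flow-responsive Klf2, and Pdgfra and Nr2f2, where a peak within 1 kb of the start was found in both Tie2-Cre lists and in no het list. The 250 bases upstream of each start are shown 5′ to 3′ as RefSeq gives them on GRCm38.p6. Capitals mark matches on either strand to any of the motifs AGATAA for GATA factors, AGGAAG for ETS factors, TGACG for part of a cAMP response element and TGANTCA for AP-1.

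Tek, chr4:94739039-94739288, plus strand: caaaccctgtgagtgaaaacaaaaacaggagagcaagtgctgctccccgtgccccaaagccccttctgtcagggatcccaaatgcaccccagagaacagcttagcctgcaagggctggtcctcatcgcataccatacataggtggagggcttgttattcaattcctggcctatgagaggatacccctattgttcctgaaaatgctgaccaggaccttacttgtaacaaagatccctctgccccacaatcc

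Jun, chr4:95052223-95052472, minus strand: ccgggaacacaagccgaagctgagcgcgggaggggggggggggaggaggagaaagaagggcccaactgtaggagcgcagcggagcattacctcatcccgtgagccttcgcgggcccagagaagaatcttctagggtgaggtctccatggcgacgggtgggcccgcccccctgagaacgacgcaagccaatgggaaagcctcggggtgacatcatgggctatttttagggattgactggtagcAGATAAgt

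Fosb, chr7:19310046-19310295, minus strand: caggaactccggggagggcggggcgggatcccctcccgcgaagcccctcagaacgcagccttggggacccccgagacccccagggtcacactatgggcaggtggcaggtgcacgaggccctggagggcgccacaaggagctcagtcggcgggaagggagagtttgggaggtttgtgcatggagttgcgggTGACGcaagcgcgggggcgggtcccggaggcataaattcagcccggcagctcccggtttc

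Btg2, chr1:134079156-134079405, minus strand: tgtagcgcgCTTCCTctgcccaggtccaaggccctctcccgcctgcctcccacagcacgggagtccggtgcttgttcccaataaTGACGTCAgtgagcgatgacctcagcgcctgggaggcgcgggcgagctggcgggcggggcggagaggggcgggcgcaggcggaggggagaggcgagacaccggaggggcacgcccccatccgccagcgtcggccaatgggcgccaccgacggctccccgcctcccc

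Klf2, chr8:72318812-72319061, plus strand: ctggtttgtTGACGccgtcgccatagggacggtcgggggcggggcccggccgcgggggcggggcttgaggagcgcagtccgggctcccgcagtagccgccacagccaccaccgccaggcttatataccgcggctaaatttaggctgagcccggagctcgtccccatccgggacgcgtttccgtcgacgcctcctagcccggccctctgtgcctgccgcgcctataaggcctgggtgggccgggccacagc

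Pdgfra, chr5:75152001-75152250, plus strand: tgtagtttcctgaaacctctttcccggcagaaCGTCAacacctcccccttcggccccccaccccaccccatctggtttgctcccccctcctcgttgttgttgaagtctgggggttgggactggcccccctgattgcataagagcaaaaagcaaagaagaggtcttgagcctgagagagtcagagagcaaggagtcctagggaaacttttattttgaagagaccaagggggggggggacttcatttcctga

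Nr2f2, chr7:70366747-70366996, minus strand: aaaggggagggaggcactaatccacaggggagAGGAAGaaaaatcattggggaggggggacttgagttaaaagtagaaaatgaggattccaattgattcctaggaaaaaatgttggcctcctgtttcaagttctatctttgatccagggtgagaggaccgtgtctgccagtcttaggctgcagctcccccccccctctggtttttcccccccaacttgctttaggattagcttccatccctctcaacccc

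Over all 32851 promoter entries of the same length, AGATAA was found in 9.99%, AGGAAG in 29.5%, TGACG in 17.8% and TGANTCA in 6.75%. Jun held 1 match to AGATAA, Fosb, Klf2 and Pdgfra 1 each to TGACG, and Nr2f2 1 to AGGAAG. Btg2 held 1 match to AGGAAG and 2 to TGACG that overlap as the palindrome TGACGTCA. These letters were absent from the Tek window. Entries for Cdh5, Gata4, Hey1 and Loxl2 were not used here.

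Promoters of endothelial genes were open in both groups. Of 24 endothelial genes, 22 had a promoter peak in the strongest 67201 peaks of all 5 libraries, and of 24 endothelial transcription factor genes also 22. Over all genes it was 13464 of 24091. Other lists reached as far, with 19 of 19 immediate early, 20 of 20 ribosomal protein and 18 of 20 cell cycle genes, so this count does not set endothelial genes apart. Of other cell types, 14 of 20 cardiomyocyte transcription factor genes, 12 of 18 epicardial, fibroblast and mural genes, 11 of 16 cushion mesenchyme genes, 10 of 22 blood genes, 8 of 26 cardiomyocyte sarcomere genes and 3 of 18 macrophage genes had a promoter peak in all 5. The promoters of Ptprc and Gata1, which define leukocytes and red cell precursors, had 0 peaks in all 5 lists, as had Csf1r, which defines macrophages.

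The lists differed in length and form before any comparison of sites. Tie2-Cre libraries had 114599 and 130708 peaks covering 76.2 and 85.6 Mb, and het libraries 90326, 82612 and 67201 peaks covering 42.5, 40.7 and 29.9 Mb. Median widths were 447 and 449 bp against 369, 389 and 348 bp. The widest Tie2-Cre peaks reached 52839 and 52841 bp, whereas no het or ko peak exceeded 3427 bp. The deposited score was 10 times the −log10 q in the Tie2-Cre lists and 10 times the −log10 p in nearly all het peaks, and the het peak names carry the tags nodup and rmchrM, which the Tie2-Cre names lack. The weakest Tie2-Cre peaks had a −log10 q of 1.52 and 1.31, while 3.72%, 0.625% and 7.92% of the het peaks had a q above 0.05. Peak calling thus differed with the groups too, and its share cannot be told apart from that of the driver. For this reason counts are also given for lists cut to their strongest 67201 peaks by p, called equal-length lists.

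Libraries of a group shared more open bases with each other than with the other group. The Jaccard index, the bases in both lists divided by the bases in either, was 0.729 for the Tie2-Cre pair, 0.495 to 0.586 for the het pairs and 0.312 to 0.438 for the 6 pairs between the groups. The mean within groups exceeded the mean between them by 0.192 (one-sided exact permutation p = 0.1 over the 10 ways to split the libraries, which is the lowest possible). In equal-length lists the gap was 0.184, with 0.775 for the Tie2-Cre pair and 0.377 to 0.468 between groups. With the ko libraries added to the het ones, every list cut to 55733 peaks, the gap was 0.174 (one-sided exact permutation p = 0.0357 over 28 ways, again the lowest possible). The ko libraries thus lay with the het libraries and apart from Tie2-Cre.

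**Figure D1:**
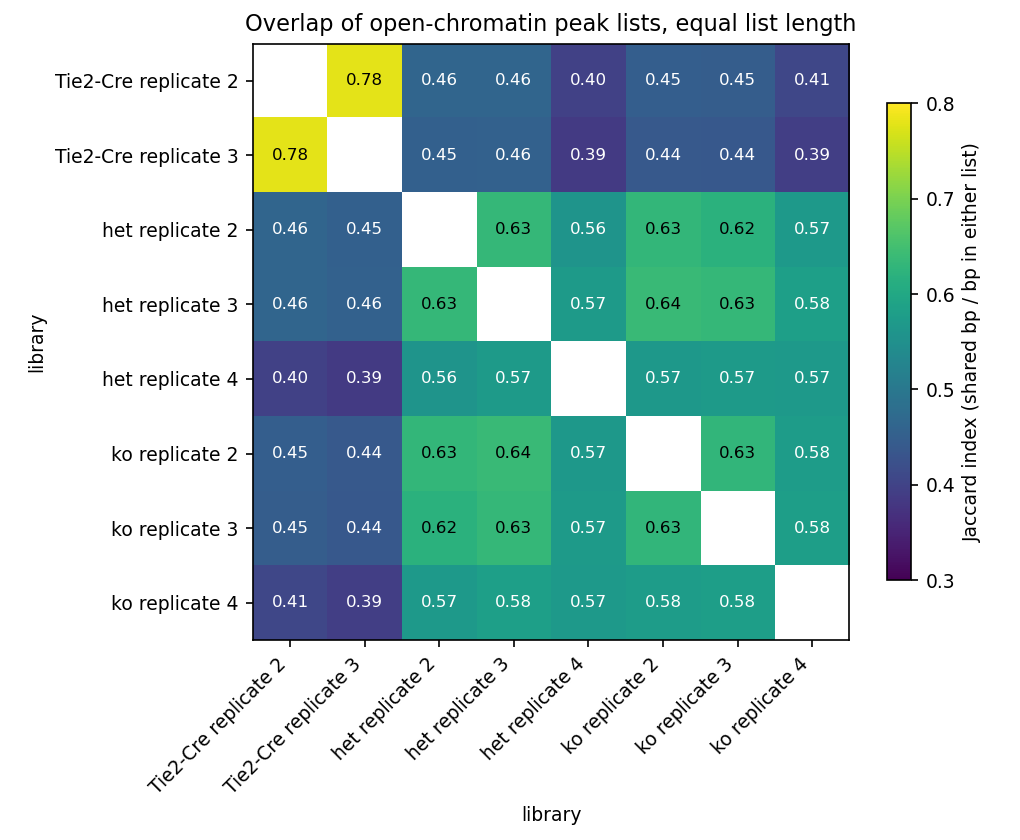
Jaccard index of open bases for each pair of the 8 EC libraries, in lists cut to 55733 peaks, with colour from low (dark) to high (yellow). Every index between a Tie2-Cre and a het or ko library is lower than every index within either driver.

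Most reproducible het regions were also open in Tie2-Cre EC, and the reverse held less often. Regions with a peak in both Tie2-Cre libraries and in at least 2 of 3 het libraries numbered 62226. They made up 96.1% of the 64772 reproducible het regions and 71.1% of the 87507 reproducible Tie2-Cre regions. Another 25281 regions (16.3% of all) had a peak in both Tie2-Cre libraries and in no het library, called Tie2-only, and 2546 (1.64%) had one in at least 2 het libraries and in no Tie2-Cre library, called het-only. A het peak in all 3 libraries and no Tie2-Cre peak was found at 333 regions. Single libraries moved these counts: without Tie2-Cre replicate 2, 47016 regions were Tie2-only, and het-only regions numbered 5134 without Tie2-Cre replicate 3, 670 without het replicate 2 and 720 without het replicate 3.

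The difference in these counts went with list length. In equal-length lists 7272 regions were Tie2-only (7.46% of 97468) and 6877 het-only (7.06%), and the shared class covered 86.7% and 87.3% of what was reproducible in Tie2-Cre and in het EC. A rule that needs a strong peak on one side and none on the other gave unequal counts again. Under it, 5368 regions (3.46% of 155283) were in both equal-length Tie2-Cre lists and in no full het list, and 162 (0.104%) were in all 3 equal-length het lists and in no full Tie2-Cre list. The latter are called strict classes below. Since a full Tie2-Cre list is longer than a full het list, this rule too is easier to pass in the Tie2-only direction.

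**Figure D2:**
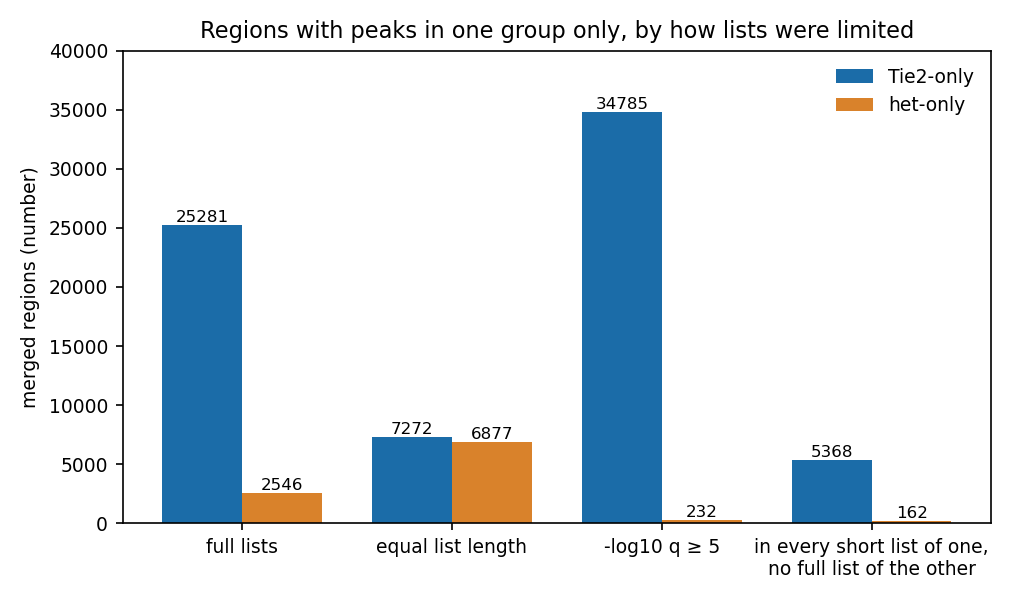
Number of merged regions with peaks in 1 group only (bars, axis from 0), for full lists, equal-length lists, peaks with a −log10 q of at least 5, and the strict classes. The counts are 7272 and 6877 at equal length and far apart under the other 3 settings.

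The ko libraries, which took no part in the choice of regions, held more of the het-only than of the Tie2-only regions. Tie2-only regions had a ko peak in 10.4%, 9.11% and 2.96% of cases in ko replicates 2, 3 and 4 (7.50% ± 3.99, SD, n = 3). Het-only regions had one in 49.8%, 36.0% and 9.15% (31.7% ± 20.7), and shared regions in 91.1%, 88.9% and 71.9% (84.0% ± 10.5). Each ko library gave the same order of the 3 classes, and the shortest, replicate 4, the lowest share in each. Strict regions stood further apart, with means of 9.61% for Tie2-only and 56.6% for het-only.

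At Tek, the driver's own gene, the groups were far apart. The peak over the Tek promoter, within 1 kb of its start, ranked 30 and 268 by p in the Tie2-Cre lists, 27897, 16106 and 11380 in het and 10556, 16961 and 18027 in ko. It was 12174 and 5228 bp wide in Tie2-Cre lists and 1072, 861 and 884 bp in het. The merged region there (mm10 chr4:94737490-94749705, from upstream of the start into the gene) ranked 30 and 35 against 10630, 8256 and 8604. Its log2 rank ratio of 8.13 was exceeded among regions in all 5 lists by those at the ribosomal RNA gene Rn45s (10.57) and near Mir101c (8.28). Rn45s belongs to a multicopy family and is uncertain. The Tek peak of Tie2-Cre replicate 2 had its summit more than 1 kb from the start, while that of replicate 3, at rank 268, lay within it. GATA4 bioChIP libraries made with the same Tie2-Cre driver also had a Tek promoter peak near the top of their lists, at ranks 8, 17 and 12, with widths of 717, 636 and 781 bp. The 3 GATA4 libraries made with Tnnt2-Cre had none. The Tie2-Cre transgene carries Tek regulatory sequence, and its reads and those of the native locus cannot be told apart.

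The other driver's gene showed no such gap. The Cdh5 promoter ranked 9297 and 7009 in Tie2-Cre lists and 6373, 8505 and 4724 in het, and these ranges overlap. Its peak was wider in Tie2-Cre EC, at 1705 and 1764 bp against 620, 629 and 537 bp. Of 19 regions of the full lists within 10 kb of the Cdh5 gene, 7 were Tie2-only, 0 het-only and 0 strict. Over all regions 16.3% were Tie2-only. In equal-length lists the locus had 10 and 9 peaks in Tie2-Cre and 7, 8 and 10 in het libraries, which overlap.

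The reporter locus and Gata4 both ranked better in Tie2-Cre EC. The promoter of Gt(ROSA)26Sor, the gene trapped at Rosa26, ranked 1598 and 1902 against 8986, 9708 and 7700 in het and 9251, 8240 and 6229 in ko. Widths there were 6628 and 6582 bp against 1546, 1567 and 1501 bp. In het replicate 4 the summit lay more than 1 kb from the start. Both groups carry a reporter at this locus, not the same one, and reads of reporter and native locus cannot be told apart. The Gata4 promoter ranked 3653 and 5955 in Tie2-Cre lists and 20351, 9299 and 6131 in het. The groups did not overlap, but Tie2-Cre replicate 3 and het replicate 4 were close. Around Gata4, 31 regions were found in full lists, of which 8 were Tie2-only and 0 het-only. Over all regions 16.3% were Tie2-only and 1.64% het-only. In equal-length lists the locus had 11 and 7 peaks in Tie2-Cre and 6, 7 and 7 in het libraries, so that the groups touched.

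Immediate early genes, which encode transcription factors and other proteins made within minutes of a stimulus, stood out among promoters. Jun, an AP-1 subunit, ranked 586 and 490 in the Tie2-Cre lists and 7150, 8522 and 6059 in het. Fosl2, a second AP-1 gene, ranked 797 and 517 against 6909, 5715 and 5284, and Fosb 2706 and 2736 against 12070, 11010 and 16285. Btg2, an antiproliferative gene, ranked 864 and 964 against 8863, 7262 and 5068, and the growth-response factor gene Egr1 2107 and 2284 against 11068, 12599 and 10710. For these 5 genes the worst Tie2-Cre rank was more than 4-fold better than the best het rank. All 3 ko libraries repeated the 4-fold gap at all 5, though against the same Tie2-Cre ranks. At Fosb no Tie2-Cre peak had its summit within 1 kb of the start, so that its rank is that of a wide peak reaching the promoter, while the ranks of the other 4 were the same by summits.

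Over all genes such gaps were uncommon. Of 13464 promoters in all 5 equal-length lists, 156 (1.16%) ranked 4-fold better in every Tie2-Cre list and 21 (0.156%) in every het list. At 2-fold the counts were 650 (4.83%) and 219 (1.63%). The 19 immediate early promoters passed at 2-fold in 11 cases, or 57.9%, all towards Tie2-Cre. Besides the 5 above these were Atf3, Egr3, Hspa1a, Jund, Ier2 and Junb. The median log2 ratio of het to Tie2-Cre rank was 1.94 over the 19 and 0.02 over all promoters, and by the authors' fold instead of p it was 3.37 and 0.31. Not all members moved: Egr2 ranked 4596 and 4273 against 7098, 4056 and 4219. These rank rules were chosen after values had been seen. Leaving out any 1 library gave 195 to 238 promoters towards Tie2-Cre, the most without Tie2-Cre replicate 3, and 35 to 70 towards het, and ranking by fold gave 1133 and 220. With the summit required to lie within 1 kb of the start, a check added after values had been seen, 12797 promoters were in all 5 lists, and 104 and 21 were 4-fold apart. At 2-fold 522 (4.08%) passed towards Tie2-Cre, and of 14 immediate early promoters 6 (42.9%): Btg2, Atf3, Hspa1a, Egr1, Jun and Fosl2.

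Peak width moved with the rank gap. The 156 promoters had median widths of 3626 and 3625 bp in the Tie2-Cre lists, against 1590 and 1597 bp over all 13464, while in het lists they measured 1042, 1025 and 899 bp against 929, 960 and 804 bp. Of the 156, 51.9% were wider than any het or ko peak in both Tie2-Cre lists, as were 52.6% of the immediate early promoters and 2.99% of all. The part of width in the rank gap was not tested.

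Endothelial regulators were among the other promoters with a gap. Klf2, a transcription factor gene induced by blood flow, ranked 349 and 167 in Tie2-Cre lists and 2131, 1695 and 1651 in het. Hey1, a Notch target, ranked 3914 and 4086 against 25574, 20646 and 19139. Nfatc1, a marker and regulator of endocardium, ranked 3769 and 3584 against 17254, 12690 and 33498, and the receptor gene Notch1 2364 and 3708 against 11930, 19465 and 12483. At Nfatc1 no Tie2-Cre summit lay within 1 kb of the start, and at Klf2, Hey1 and Notch1 the ranks were the same by summits. By list, 6 of 22 endothelial transcription factors passed at 2-fold (Ets1, Lyl1, Nfatc1, Klf2, Klf4 and Gata2), 3 of 9 GATA factors and cofactors (Gata2, Gata3 and Zfpm1), 3 of 15 Notch genes and 3 of 17 endocardial genes. Such shares were not limited to endothelial lists. Of cushion mesenchyme genes 2 of 11 passed, of cardiomyocyte transcription factors 2 of 14 and of sarcomere genes 1 of 8. Ribosomal protein genes passed in 2 of 20 cases, with 1 towards het, and epicardial, fibroblast and mural genes in 0 of 12. Among the 22 structural and receptor endothelial genes Tek passed (4.55%), and 0 of 10 blood promoters did, both near the 4.83% over all promoters.

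**Figure D3:**
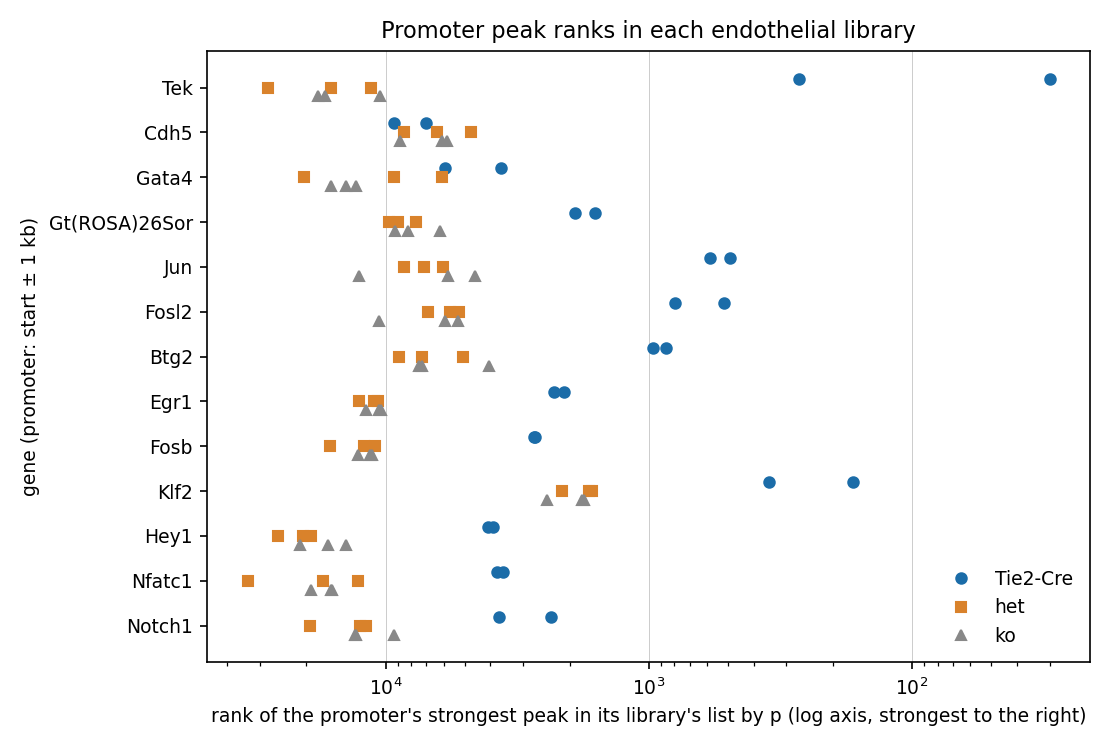
Rank by p of the strongest peak within 1 kb of the start of 13 genes in each library (log axis, strongest to the right), with Tie2-Cre as circles, het as squares and ko as triangles. Tek, Jun and Fosl2 lie far to the right in Tie2-Cre EC alone, and Cdh5 overlaps in all groups.

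Promoters that ranked better in het were fewer. Of the 21, 4 (19.0%) kept the 4-fold gap in all 3 ko libraries, compared with 111 of 156 (71.2%) in the Tie2-Cre direction. These shares are not independent of the choice, since the ko gap was taken to the same Tie2-Cre ranks. A promoter without a ko peak counted as a kept gap towards Tie2-Cre and as a lost gap towards het, so the directions are not on equal terms. Pafah2, an acetylhydrolase gene, ranked 40, 42 and 170 in het and 1731 and 1311 in Tie2-Cre lists. Exoc4, a subunit of the exocyst, ranked 176, 224 and 114 against 3365 and 2832. Over whole regions the result was alike: of 39520 regions in all 5 lists, 164 (0.415%) ranked 4-fold better in Tie2-Cre and 31 (0.0784%) in het.

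Some promoters had a peak in 1 group only. In full lists 765 of 16707 promoters with any peak (4.58%) had one in both Tie2-Cre libraries and no het library, and 4 (0.0239%) in all het and no Tie2-Cre library. Any 1 library left out raised these to 841 to 1011 and 7 to 33. In equal-length lists the counts were 394 and 62. Counting a peak only where its summit lay within 1 kb, they were 670 and 180 in full lists. Under the strict rule 302 (1.81%) and 2 (0.0120%) were left, and by summits 194 and 163. The 2 were Olfr433 and Rhox11, neither with RNA in EC. The strict Tie2-only promoter with the most EC RNA was Loxl2, a lysyl oxidase gene, at 338 ± 1.49 CPM (SD, n = 2). Next came Morf4l2 at 325 ± 14.0, Cnn2 at 244 ± 3.86, Egfl7 at 226 ± 17.2 and Pdgfra at 219 ± 3.80 CPM. Summits within 1 kb of the start were found in both Tie2-Cre lists at Loxl2, Egfl7 and Pdgfra, in 1 at Cnn2 and in neither at Morf4l2. Loxl2 is uncertain, since it lies in a stretch without any het, ko or GATA4 peak that is described below.

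Among the listed genes 10 of 257 promoters with a peak were Tie2-only in full lists (3.89%) and 0 het-only. This pooled share is near the 4.58% over all promoters and does not set the listed genes as a whole apart. Without het replicate 3 the pooled count was 17, and by summits 7 were Tie2-only and 6 het-only. By list, 5 of the 10 fell among the 26 sarcomere genes, and no other list had more than 1. Sarcomere genes with a promoter peak numbered 16 and 16 in full Tie2-Cre lists and 9, 13 and 9 in het. At equal length they numbered 9 and 10 against 8, 10 and 9, which overlap. The 10 were Egfl7, a gene of endothelial cells, Nr2f2, which sets venous and atrial identity, Pdgfra, a growth factor receptor of mesenchyme, Cd68 of macrophages, and 6 cardiomyocyte genes. The latter were Myl7, Tnni3, Tnnc1, Mybpc3 and Csrp3 of the sarcomere and the transcription factor gene Hand1. By summits Hand1, Egfl7, Mybpc3, Pdgfra, Csrp3 and Nr2f2 were still Tie2-only. The regions called Tie2-only at Pdgfra and Nr2f2 lay beside regions with peaks of both groups: at Pdgfra, 2 with peaks in all 3 het libraries came within 477 and 505 bp of the start, and at Nr2f2 1 (chr7:70364696-70366050) had peaks in 2. Peaks at cardiomyocyte promoters were thus part of the Tie2-Cre lists, mostly weak ones: Tnnc1 was in both equal-length Tie2-Cre lists, Mybpc3 in 1, and Myl7, Tnni3, Csrp3 and Hand1 in none. RNA of these 5 sarcomere genes in EC libraries lay between 5.40 and 28.4 CPM, against 328 to 3197 CPM in cardiomyocytes. The Tnnt2 promoter, a defining cardiomyocyte site, was open in all 5 lists, at ranks 23278 and 22199 against 62170, 35171 and 43615. The part of cardiomyocyte material in the group difference was not tested.

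Peaks near gene lists were counted per library, within 50 kb of the nearest start in equal-length lists. Endocardial genes had 111 and 113 peaks in Tie2-Cre libraries and 87, 84 and 84 in het, a ratio of 1.32 (two-sided exact permutation p = 0.1, adjusted p over 16 lists 0.320). With the 6 Cdh5-driver libraries, all lists cut to 55733, the counts were 98 and 100 against 72, 74, 75, 66, 68 and 76 (exact p = 0.0357, adjusted p = 0.143). The groups did not overlap in either comparison, and neither passed after adjustment. The lists were chosen with earlier results of these data known, so these p-values are not those of lists fixed beforehand. Cushion mesenchyme genes had 70 and 68 peaks against 62, 52 and 55, Notch genes 94 and 88 against 76, 78 and 83, and GATA factors and cofactors 60 and 47 against 40, 44 and 46. Sarcomere genes also had more, at 79 and 75 against 68, 61 and 68, as did endothelial genes (143 and 145 against 122, 142 and 136) and cardiomyocyte transcription factors (86 and 77 against 74, 74 and 76). Cell cycle genes had fewer, 46 and 44 against 61, 63 and 51, and the other 8 lists overlapped.

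How peaks are divided bears on these counts. Het lists split 1 merged region into more peaks, at 1.07, 1.07 and 1.10 peaks per region against 1.02 and 1.01. Counted as regions, 13 of 16 lists were higher in every Tie2-Cre library and 0 in het, though both Tie2-Cre lists also held more regions in all, 66028 and 66453 against 62718, 62540 and 60884. Endocardial genes then had 107 and 110 regions against 78, 74 and 72, and GATA factors and cofactors 55 and 47 against 35, 37 and 37. Cell cycle genes overlapped, at 43 and 42 against 45, 48 and 39, and coronary and vascular endothelial genes did too, at 83 and 77 against 75, 83 and 75.

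**Figure D4:**
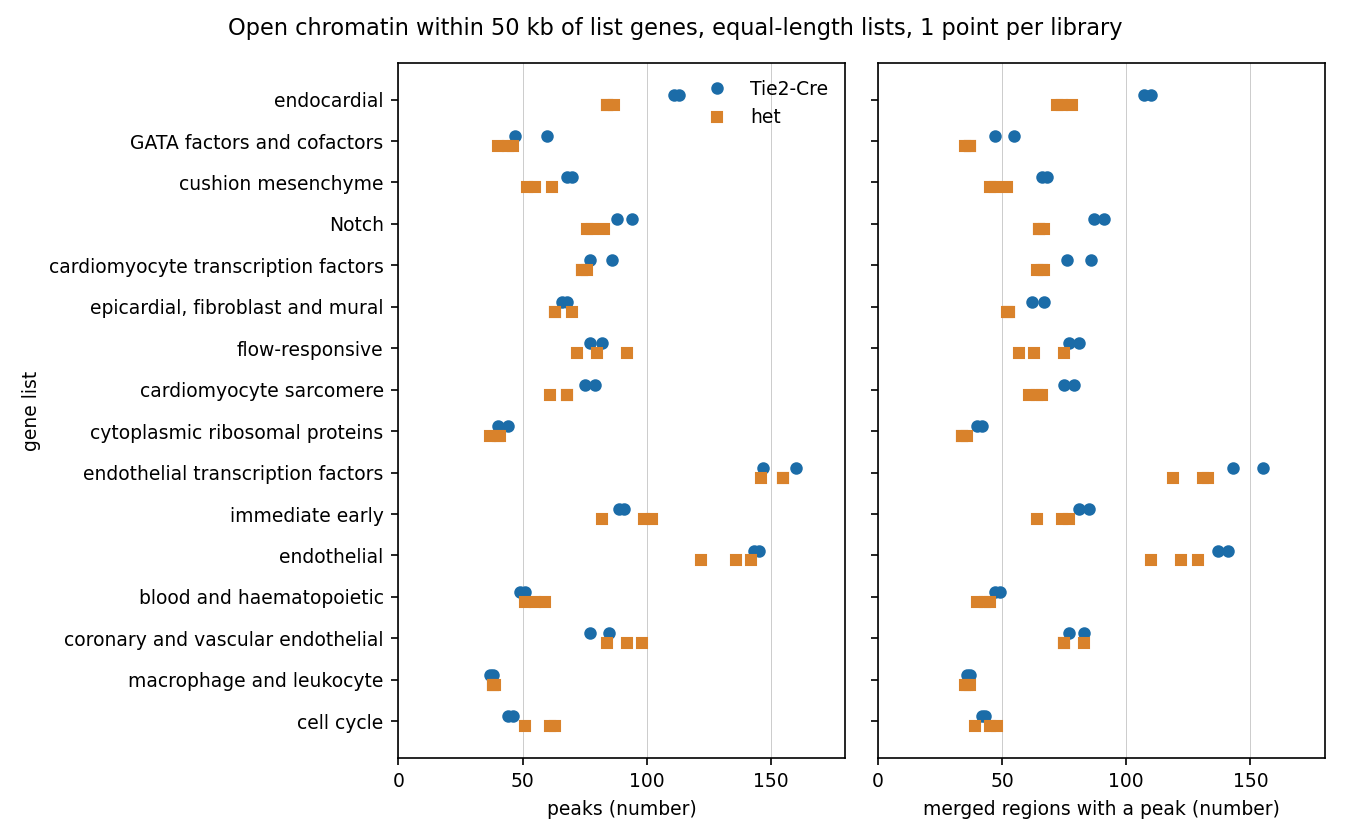
Peaks (left) and merged regions with a peak (right) within 50 kb of the genes of 16 lists, 1 point per library of the equal-length lists, Tie2-Cre as circles and het as squares. Endocardial genes are set apart in both panels, and cell cycle genes in the left panel only.

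Single genes were compared by regions, so that split peaks count once. Of 19243 genes with a region, every Tie2-Cre count was above every het count at 2432 (12.6%) and every het count above every Tie2-Cre count at 807 (4.19%). The groups were at least 2 regions apart at 564 (2.93%) towards Tie2-Cre and 67 (0.348%) towards het, a rule chosen after values had been seen. With any 1 library left out these became 710 to 849, the most without Tie2-Cre replicate 3, and 120 to 178. Among 20 endocardial genes, 11 were higher without overlap and 4 by 2 or more: Nfatc1 with 11 and 10 regions against 5, 5 and 4, Adgrg6, an adhesion receptor gene, with 6 and 6 against 2, 1 and 2, Cgnl1, a junction protein gene, with 8 and 9 against 5, 6 and 5, and Plvap, a gene of endothelial diaphragms, with 5 and 5 against 3, 3 and 3. None of the 20 was higher in het.

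Signalling receptors and transcription factors followed. Kdr, the main VEGF receptor gene, had 12 and 11 regions against 6, 9 and 8. Eng, a co-receptor of TGF-beta family ligands, had 8 and 7 against 4, 5 and 4. Notch1 had 13 and 12 against 9, 7 and 8, Notch2 10 and 9 against 6, 6 and 7, and the Notch target Hes1 7 and 7 against 4, 4 and 3. In the GATA list, where 7 of 10 genes were higher without overlap, Gata2 had 6 and 6 against 4, 4 and 4, the cofactor gene Zfpm1 9 and 9 against 7, 7 and 6, and Ldb1 5 and 4 against 2, 2 and 2. Foxc1 had 10 and 9 against 6, 5 and 5, and Lyl1 13 and 11 against 7, 7 and 7.

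Genes of other lists also passed. Sox9, a regulator of cushion mesenchyme, had 3 and 3 regions against 1, 1 and 1, and Unc5b, a netrin receptor gene of vessels, 10 and 10 against 6, 6 and 5. The vasoconstrictor gene Edn1 had 6 and 5 against 2, 3 and 2, and Ctgf 12 and 13 against 8, 8 and 5. The cardiomyocyte regulators Irx5 and Ankrd1 and the sarcomere genes Tpm1 and Ldb3 were higher by 2 as well. So were Col1a1, Nr4a1 and Rps14 of the fibroblast, immediate early and ribosomal lists. By list, 3 of 10 GATA factors and cofactors passed, 4 of 20 endocardial, 3 of 16 Notch, 2 of 14 flow-responsive, 3 of 24 endothelial, 2 of 19 cardiomyocyte transcription factor and 2 of 21 sarcomere genes. Of 17 blood, 15 macrophage and 20 cell cycle genes with a region 0 passed, where 2.93% of all genes did. Ppargc1a, a regulator of mitochondria, was alone among listed genes in being lower by 2, with 2 and 2 against 5, 4 and 5. Emcn, a surface glycoprotein gene of endothelium, had 3 and 3 against 4, 5 and 5 by the weaker rule.

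**Figure D5:**
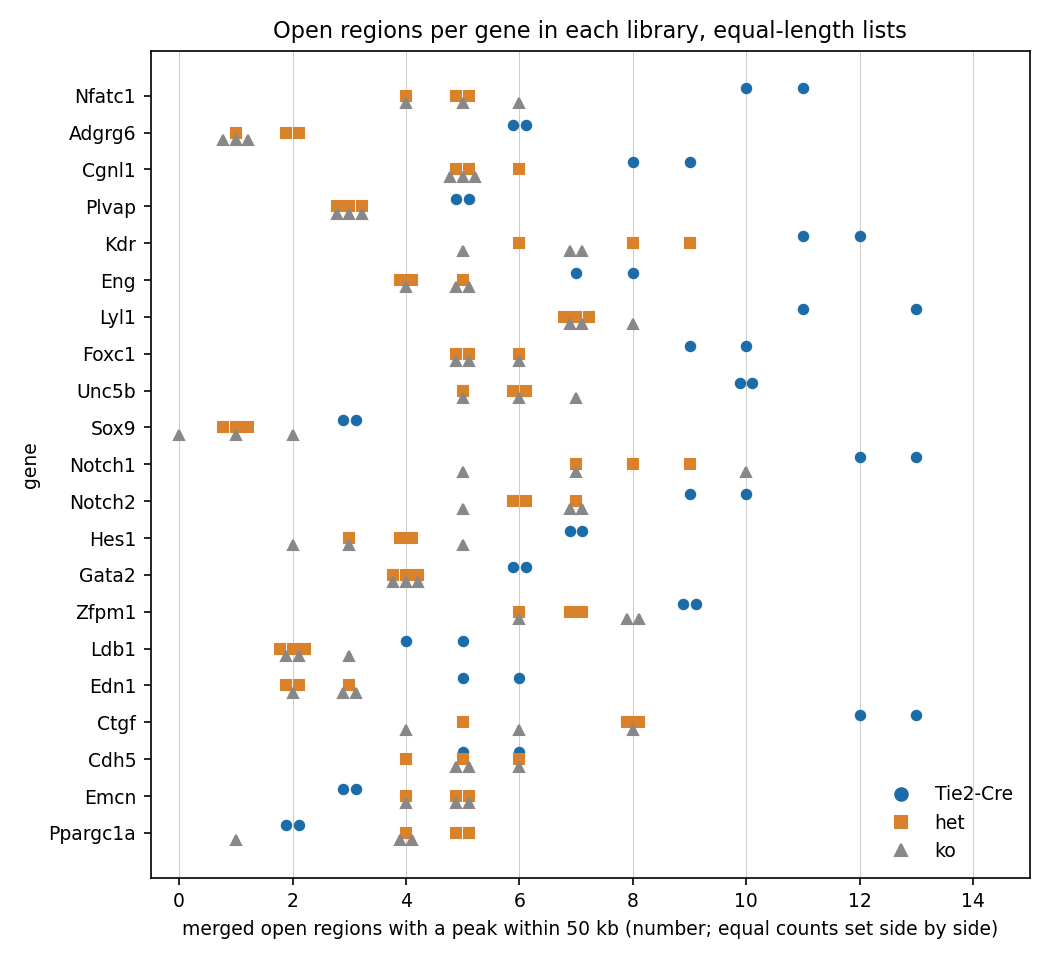
Merged regions with a peak within 50 kb of each gene in every library of the equal-length lists, with Tie2-Cre as circles, het as squares and ko as triangles. Nfatc1, Adgrg6 and Unc5b have more regions in Tie2-Cre than in any het or ko library, Cdh5 overlaps, and Emcn and Ppargc1a have fewer than in het.

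Strict Tie2-only regions lay at many of these genes. They come from the same peak lists as the region counts that named the genes, so they add no separate evidence. Of all regions near a gene 3.58% were strict Tie2-only. Near Notch genes it was 14 of 168 (8.33%), near GATA factors and cofactors 9 of 121 (7.44%), near endocardial genes 18 of 261 (6.90%) and near flow-responsive genes 10 of 153 (6.54%). The shares were 5.35% for immediate early, 4.73% for endothelial, 4.39% for cardiomyocyte transcription factor and 3.93% for sarcomere genes. They were lowest at 3.02% for coronary and vascular endothelial, 2.38% for macrophage, 2.04% for cell cycle and 1.92% for blood genes. Regions near a gene are not independent of each other. Strict het-only regions made up 0.0770% of regions near genes, and the sole one at a listed gene lay 33759 bp from Egr2.

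Of the strict Tie2-only regions 22.0% had a peak in some ko library. Examples without one are given with mm10 positions and their ranks in Tie2-Cre replicates 2 and 3. At Eng a region between genes, 6269 bp from its start (chr2:32639174-32640326), ranked 24557 and 22396. In an intron of Notch1 (chr2:26499818-26501311, 2511 bp from the start) the ranks were 25101 and 31099. Nrarp, a Notch feedback inhibitor gene, had a region 1587 bp from its start (chr2:25176595-25179171, ranks 25098 and 26741). An intron of Adgrg6 held a region ranked 29908 and 27072 (chr10:14517942-14518350), and an intron of Gata5, an endocardial GATA factor gene, one ranked 27530 and 33323 (chr2:180336651-180338217). Beside Gata2 the region lay between genes, 3934 bp from the start (chr6:88193395-88194730, ranks 27056 and 28057), and beside Twist1, a mesenchyme factor gene, 1256 bp away (chr12:33955768-33956415, ranks 26677 and 26061). These ranks lay in the middle of the equal-length lists, and the 7 are among those without a ko peak. Regions at Ldb1, Hapln1 and Irx5 and a second one at Nrarp were strict Tie2-only and had a peak in 1 or 2 ko libraries.

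The very strongest strict Tie2-only regions lay away from listed genes. They ranked 13 and 14 at chr12:97061347-97061877 and 15 and 15 at chr2:98663587-98664188, both between genes, and 28 and 107 at chr2:22588553-22590283, between genes near Gad2. An intron of Mdga2 held one ranked 29 and 283 (chr12:67059079-67059963), and a second near Gad2 ranked 93 and 265 (chr2:22587285-22588395). No het or ko library had a peak at any of these. The region at chr2:98663587-98664188 also had a GATA4 peak in both the Tie2-Cre and the Tnnt2-Cre bioChIP libraries. Shared regions lay beside it, at chr2:98664808-98665313 and chr2:98666146-98667428. The latter ranked 1 and 1 in the Tie2-Cre lists and 13, 13 and 11 in het, so this site is not an isolated one. Whether reads align uniquely at any of these regions was not tested. The strongest strict het-only region, between genes 38162 bp from the start of Xpo1 (chr11:23217380-23217879), ranked 18902, 22349 and 22535 in the het lists and had a peak in all 3 ko libraries. The next 4 lay between genes near Vwa5b1, Tyms-ps and Prcp and in an intron of Prex2, and each had a peak in at least 2 ko libraries. The strongest strict het-only regions thus began far lower in their lists than the strongest strict Tie2-only regions in theirs. At listed genes the best strict Tie2-only region, near Hopx, ranked 17390 and 16220. The sole strict het-only region at a listed gene, near Egr2, ranked 56130, 50101 and 46666 in the het lists.

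Part of the strict Tie2-only regions stood in runs. Between neighbouring het or ko peaks, 56 gaps held at least 4 of them, together 527 regions or 9.82% of 5368. The longest run by number had 50 regions (chr4:41787533-42682662), followed by 37 near Gm25018 (chr8:123522258-123600286), 33 near Atg7, an autophagy gene (chr6:114566493-114634775), and 32 that include Slc25a37 and Loxl2 (chr14:69269505-69686765). By gene, the most strict Tie2-only regions lay near Gm25018 (26), Atg7 (20), 4930467E23Rik (19), Erdr1 (15) and Speer4d (14). No gene had more strict het-only than Tie2-only regions by over 1. In the 4 runs the Tie2-Cre lists had 44 to 100 peaks each, and the 6 GATA4 lists had 0. The het and ko lists have 0 there by the way the gaps were drawn. The sources used here do not say how reads that align to several places were treated, so genes in these runs, Loxl2 included, are uncertain.

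By position, regions of 1 group lay at promoters less often than shared regions did. Within 1 kb of a start were 5.19% of Tie2-only regions (95% Wilson interval 4.93 to 5.47), 2% of het-only regions (1.53 to 2.62) and 21.6% of shared regions. Intervals here cover counting error only. Introns held 39.2% of Tie2-only and 42.7% of het-only regions, and 45.7% of Tie2-only regions lay between genes. Over all regions, 11.1% lay within 1 kb of a start, 37.8% in introns and 42.8% between genes, so most regions of any kind were away from promoters. The median distance to a start was 20997 bp for Tie2-only and 42116 bp for het-only regions.

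GATA4 peaks were mostly in shared regions. A GATA4 peak in at least 2 of 3 Tie2-Cre bioChIP libraries overlapped 18.5% of shared, 2.09% of Tie2-only and 2% of het-only regions. For the Tnnt2-Cre bioChIP libraries, which mark the cardiomyocyte lineage, the shares were 15.7%, 5.28% and 1.69%. Tie2-only regions thus overlapped cardiomyocyte GATA4 peaks more often than endothelial ones, though the former lists hold more regions, 18647 against 14228. Over all regions the shares were 8.67% for Tie2-Cre and 8.88% for Tnnt2-Cre GATA4. Shared regions were also wider, at a median of 821 bp against 423 bp for Tie2-only and 358 bp for het-only regions. The part of width in these overlaps was not tested.

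RNA of EC was set beside these classes, with cardiomyocytes (CM) as the comparison. The Tie2-Cre EC libraries had 27660790 and 21682362 counts and the CM libraries 42948614 to 48393473. Over all 14851 genes tested with edgeR's quasi-likelihood test, 37.5% were higher in EC and 40.2% in CM at an adjusted p under 0.05. Of 6849 tested genes near Tie2-only regions, 43.1% were higher in EC and 36.6% in CM. Near het-only regions (926 genes) the shares were 39.7% and 39.4%, and near shared regions 38.8% and 39.4%. Near strict Tie2-only regions (2226 genes) they were 46.5% and 35.1%. A gene can lie near several classes, RNA of het EC was not measured, and EC RNA comes from the Tie2-Cre driver, so these shares describe genes and do not compare expression between drivers.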

How the data were processed

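Peaks were deposited as 1 list per library on mm10, per the file headers and labels, with peak names that carry MACS2. The authors gave each peak a fold over background (a ratio), −log10 p and −log10 q values and a score, and these deposited values served here for order and thresholds inside each list alone. RNA values are counts per gene, deposited by the authors after counting with featureCounts 1.6.3, per the file headers. Bowtie 1.1.1, Bowtie2 2.2.9, STAR 2.7.3a, MACS2 2.2.4 and deepTools 3.3.1 are named in the submitters' processing notes without a role. On removal of duplicates or of reads aligning to several places, the sources used here give only the tags nodup and rmchrM in het and ko peak names.

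Groups were taken from the labels. Peaks of the 5 libraries were merged where they shared 1 bp (Python 3.11.15, numpy 2.4.6, pandas 2.3.3, scipy 1.17.1, matplotlib 3.10.9). Equal-length lists hold the 67201 strongest peaks by p, or 55733 with ko libraries. Regions and peaks were assigned to the nearest start within 50 kb among 24091 genes with a position in the count table (144 on several chromosomes and 176 with distant copies were left out). A promoter is the start ± 1 kb. Depth of the ATAC libraries is unknown, since peak lists hold no reads. EC and CM counts were compared with edgeR 4.0.16 in R 4.3.3, quasi-likelihood test with Benjamini-Hochberg adjustment, with DESeq2 1.42.0 as an alternative. Region merging and the edgeR test were tested on simulated data. The members and the 16 gene lists (311 entries, 308 with a position) were chosen with earlier results of these data known. Named regions and genes were the 5 strongest strict regions per direction, up to 3 per list, the 4 driver, reporter and Gata4 loci, the 5 genes with the most strict regions, the 5 strict promoters with the most EC RNA, and list promoters that differed fully. Genes and promoters named by the 2-region and the 2-fold or 4-fold rank rules were chosen after values had been seen, from listed genes and the extremes. Cardiomyocyte ATAC (2 samples) was not analysed here.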

Additional observations from a re-analysis of the deposited data

How the results depend on the processing

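Over 271 alternative values, 188 stayed within the bounds used for no change, 82 moved and 1 passed the test's threshold. A change of sign was looked for only in the Jaccard gap and the list ratios, where 0 were found. Counts were each set against their own main value, so a turn in the contrast of Tie2-only with het-only counts was not labelled. Tie2-only regions numbered 7272 at equal list length, 7374 with 250 bp either side of each summit as well, 5368 in the strict classes and 27154 to 47016 with 1 library left out. Het-only regions numbered 6877, 9368, 162 and 670 to 5134 under the same settings, 232 and 1533 at a −log10 q of at least 5 and 2, and 333 when 3 of 3 het libraries were required. Shared regions numbered 41032 at a −log10 q of at least 5, 38733 when a peak had to cover 0.5 of the region and 39520 in the strict classes. The excess of Tie2-only regions, 25281 against 2546 in full lists, fell to 7272 against 6877 at equal length and turned to 7374 against 9368 with summit windows. The Jaccard gap of 0.174 with 6 Cdh5-driver libraries passed the threshold, because more splits exist. Means of ko overlap were 15.4% (Tie2-only) and 56.0% (het-only) at equal length, and 56.6% (het-only) and 96.0% (shared) in the strict classes. Promoter shares at equal length were 3.16% for het-only and 26.8% for shared regions.

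GATA4 overlap followed how many bioChIP libraries had to hold the peak. For Tie2-Cre GATA4 it was 5.26% and 0.182% of Tie2-only, 5.15% and 0.157% of het-only and 33.2% and 3.57% of shared regions with 1 and 3 libraries. For Tnnt2-Cre GATA4 it was 8.64% and 1.22%, 3.69% and 0.196%, and 26.6% and 3.11%. At equal list length the shares were 4.44%, 4.74% and 21.9% for Tie2-Cre and 8.75%, 3.69% and 18.5% for Tnnt2-Cre GATA4. In the strict classes they were 3.60%, 1.23% and 23.8%, and 7.06% and 19.5% for Tie2-only and shared regions with Tnnt2-Cre GATA4. Lists with more peaks in every Tie2-Cre library numbered 4 within 100 kb, 4 as a share of full lists and 13 as merged regions. Lists with more in every het library numbered 3 within 20 kb, 3 as a share of full lists, 0 as merged regions, 0 against 6 Cdh5-driver libraries and 1 to 3 with 1 library left out. One-group promoters numbered 394 and 62 at equal length, 670 and 180 by summits within 1 kb of the start (6 het-only ones at listed genes), and 7 to 33 het-only ones with 1 library left out. List promoters that were Tie2-only numbered 10 to 17, genes 2 regions apart 710 to 849 and 120 to 178, and promoters 4-fold apart 195 to 238 and 35 to 70, each with 1 library left out. Ranks by fold gave 1133 and 220 such promoters. At 2-fold, ranks by fold gave 17 of 19 immediate early promoters towards Tie2-Cre, where over all 13464 it was 2628, with 766 towards het. GATA factors and cofactors then passed in 8 of 9 cases, endothelial transcription factors in 16 of 22 and epicardial, fibroblast and mural genes in 1 of 12. By summits within 1 kb of the start, 6 immediate early promoters passed at 2-fold. Where not stated, the cause was not tested. Alternatives with q of at least 2, without wide peaks, with summits or summit windows, by regions and by rank or fold were chosen after seeing the data.

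Replicate numbers 2 and 3 occur in both ATAC groups, and limiting the comparison to them equals leaving out het replicate 4. Pairs with the same number had a Jaccard index of 0.433 and 0.413, and crossed pairs of 0.438 and 0.412. Nothing in the labels ties the numbers, and presence in a list gives no fit for a block. For RNA, a replicate block gave 2814 EC-higher and 2421 CM-higher genes near Tie2-only regions, against 2951 and 2509 without it, and 350 and 349 against 368 and 365 near het-only regions. The numbers did not pair these samples (correlation of deviations -0.00356). Depth of the ATAC libraries is unknown, so a region without a peak is not shown to be closed.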
